A study of Mus musculus with 54 samples.

Results

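The effect of the AMLN diet was measured in livers whose hepatocytes lacked folliculin, by RNA-seq of 6 of the 54 libraries of the series: 3 labelled AMLN LiFKO and 3 labelled chow LiFKO. LiFKO mice carried floxed Flcn alleles and had received AAV8-TBG-Cre, a virus that expresses Cre from a promoter active in hepatocytes, so other liver cells kept the gene. Control mice had the same floxed alleles and received AAV8-TBG-GFP. From about a week after the virus both genotypes ate AMLN diet or normal chow for 17 to 18.5 weeks and were fasted for 4 to 6 h before the liver was taken. AMLN diet is rich in fat, fructose and cholesterol and is used to induce fatty liver and steatohepatitis in mice. The 3 AMLN Control and 3 chow Control libraries serve as the comparison. The fit behind every p-value also held 3 AMLN DKO libraries, of floxed mice given AAV8-TBG-Cre that also had no Tfe3 in any tissue, which entered the estimate of the spread only. The age and sex of the mice and whether each library is a separate mouse are not stated in the labels used here, so p-values measure the spread between replicate libraries of these 5 groups.

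Folliculin, with its partners Fnip1 and Fnip2, activates RagC and RagD at the lysosome, through which mTORC1 phosphorylates TFE3 and keeps it in the cytoplasm. Without folliculin TFE3 enters the nucleus and induces lysosomal genes. Fatty acid synthesis in the liver is driven mainly by SREBP-1c, encoded by Srebf1, which sugar, insulin and oxysterols induce, the last through LXR. Excess cholesterol is exported into bile by Abcg5 and Abcg8, a pair of transporter subunits and LXR targets too.

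Values were the authors' log2 values, quantile normalized, for 13815 genes. The added offset and the depth are unknown, so a log2 fold change of a low gene may be compressed. Differences were tested with limma, adjusted over all genes by the Benjamini-Hochberg method, and called at an adjusted p under 0.05. For some lists counts at an unadjusted p under 0.05 are given too. The share of all genes at that threshold is not given, so these counts are descriptions and not results about a list. In LiFKO the threshold is loose: Fgf21, with a limma p of 0.0486, had an adjusted p of 0.234. Replicates of the LiFKO groups correlated at 0.9783 to 0.9821 (Pearson, across genes), and libraries of the 2 diets at 0.9675 to 0.974. On the second principal component (23.6% of the variance) AMLN LiFKO libraries lay at -18.5 to -14.3, chow LiFKO at 11.5 to 21.5 and chow Control at 37.2 to 47.4. AMLN Control replicate 3 stood apart from its group there, at -11.4 against -37 and -31.9. The 12 hepatocyte markers averaged log2 values of 17.16 to 17.38 in AMLN LiFKO libraries and 17.30 to 17.65 in chow LiFKO libraries. The livers were analysed as bulk tissue, in which fewer cells of a type and less RNA per cell cannot be told apart.

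Flcn itself (ENSMUSG00000032633) had log2 values of 10.25, 10.56 and 10.43 in AMLN LiFKO livers, against 10.55, 10.14 and 10.53 in chow LiFKO livers. The AMLN Control values were 10.98, 10.92 and 11.06, against 11.33, 11.55 and 11.44 in chow Control. All LiFKO values lay under all Control values, on either diet, and the diet left Flcn in LiFKO at a difference of 0.01 (SE 0.17, adjusted p = 0.987). A value for the whole gene also counts exons outside the deletion and RNA of other cells. Tfe3 was at 9.92, 10.02 and 10.07 in AMLN LiFKO, against 10.18, 10.18 and 10.54 in chow LiFKO, a difference of -0.30 that was not called (SE 0.12, adjusted p = 0.178).

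In LiFKO livers the diet raised lipogenic desaturases and sterol exporters and lowered drug-metabolizing cytochromes and gluconeogenic Pck1. Of the 13815 genes, 218 rose (1.58%) and 299 fell (2.16%), 517 in all (3.74%). In Control livers the same diet changed 3154 genes (22.8%), of which 1546 rose (11.2%) and 1608 fell (11.6%). The LiFKO and the Control comparison share no library. The AMLN LiFKO and chow LiFKO libraries did not overlap in 3439 of the 13815 genes (24.9%). These included 216 of the 218 that rose and 297 of the 299 that fell, so a lack of overlap adds little to a call. When the values were centred on 19 housekeeping genes the LiFKO count became 52 higher and 47 lower. Leaving out chow LiFKO replicate 1 or 2, or AMLN LiFKO replicate 1, 2 or 3, reduced it to 188, 175, 194, 259 and 286 genes. Without chow LiFKO replicate 3 it was 497. No called gene changed sign. Each such fit has fewer libraries, which by itself can lower the count. These counts therefore cannot show that calls rested on single libraries, and the cause was not tested.

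Genes that changed in LiFKO mostly had the same sign in Control. Of the 218 genes that rose in LiFKO, 100 (45.9%) also rose in Control and 0 fell there by the limma call, and 86.7% had the same sign; their median log2 fold change was 0.66 in LiFKO and 0.40 in Control. Of the 299 that fell, 182 (60.9%) fell in Control and 5 rose, and 91.0% had the same sign, with medians of -0.63 in LiFKO and -0.44 in Control. Few of the genes called in Control passed the test in LiFKO. Of the 1546 genes that rose in Control, 100 (6.47%) were called higher in LiFKO, and 81.0% had the same sign, with medians of 0.20 in LiFKO and 0.67 in Control. Of the 1608 that fell, 182 (11.3%) were called lower in LiFKO and 84.5% had the same sign, with medians of -0.24 in LiFKO and -0.56 in Control. A list chosen for its calls in one genotype has its own median pulled outward there. The share of all genes with the same sign in both genotypes is not given, so the same-sign shares are descriptions. Across all genes, which are not independent replicates, the 2 sets of fold changes had r = 0.479, and their SD was 0.43 in LiFKO and 0.62 in Control. The test of the difference itself called 144 genes (1.04%): the diet effect was lower in LiFKO than in Control for 105 (0.76%) and higher for 39 (0.282%). Of the 105, 102 rose in Control and 91 were not called in LiFKO; of the 39, 32 fell in Control and 31 were not called in LiFKO. This count moved between 27 and 334 as 1 library was left out, with 27 without AMLN Control replicate 2, 30 without AMLN Control replicate 1 or chow Control replicate 2, 334 without AMLN Control replicate 3, and 70 to 96 without chow Control replicate 1 or any 1 LiFKO library.

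**Figure D1:**
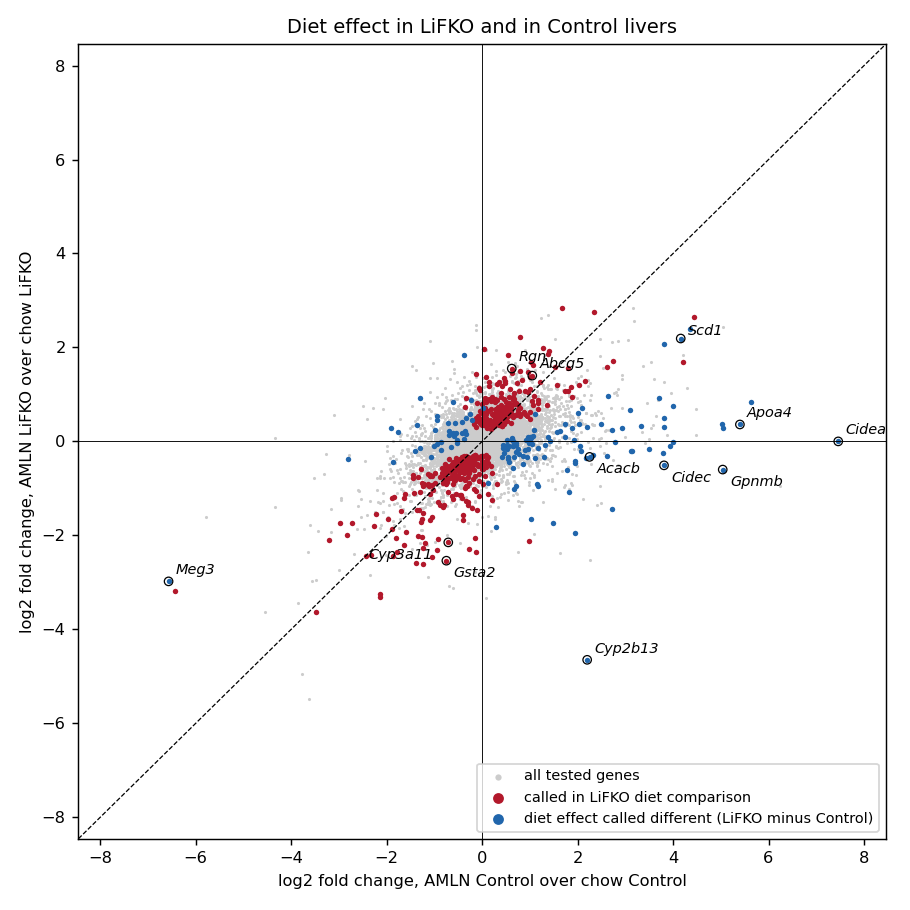
Each point is 1 of 13815 genes, with the log2 fold change of AMLN over chow in LiFKO livers on the vertical axis and in Control livers on the horizontal axis; the dashed line marks equal effects. Genes called in LiFKO but not in the test of the difference (red) lie mostly where both fold changes have the same sign. Genes called in the test of the difference are blue, also where they were called in LiFKO. They include Cidea, Apoa4, Gpnmb and Cidec, at -0.60 to 0.36 in LiFKO and at 3.81 to 7.46 in Control. The Control fold change of Cidea rests in part on chow values that are the lowest of their library.

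Fatty acid synthesis was the list with the most genes that rose in LiFKO. All 23 listed genes were measured. In LiFKO 7 rose (Srebf1, Fasn, Acaca, Thrsp, Scd1, Scd2 and Khk) and 0 fell (13 rose and 0 fell at an unadjusted p under 0.05), with a median of 0.56 beside 0.0072 over all genes. In Control 20 rose and 0 fell, with a median of 1.30. Between 4 and 8 members were called higher in LiFKO as each library was left out. The list was chosen with earlier results of these data known, so its count is a description.

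The desaturases, which introduce the double bond that makes oleate and palmitoleate, had the largest rises among the called members of the list. Scd1, the main hepatic form (ENSMUSG00000037071, mm9 chromosome 19, 44468941 to 44482199), had log2 values of 19.12, 18.75 and 18.98 in AMLN LiFKO livers, against 15.89, 17.21 and 17.19 in chow LiFKO livers. The groups did not overlap, and Scd1 rose by 2.19 (SE 0.30, adjusted p = 0.00288). In Control it was 20.65 in each of the 3 AMLN libraries, against 16.41, 16.18 and 16.90 on chow. That AMLN Control value is 1 rank of the quantile normalization shared by all of its libraries, so it carries no spread. The rise was smaller in LiFKO than in Control, with a difference (LiFKO effect minus Control effect) of -1.97 (SE 0.42, adjusted p = 0.0408), a call lost in 9 of 12 fits that each left out 1 library (-2.06 to -1.75) and kept without chow Control replicate 3, chow LiFKO replicate 1 or AMLN Control replicate 3. Scd2 reached 12.60, 11.82 and 12.40 in AMLN LiFKO, against 9.86, 10.55 and 10.20 in chow LiFKO, and rose by 2.07 (SE 0.24, adjusted p = 0.00127). Scd3 rose by 2.40 (SE 0.28, adjusted p = 0.00127). All 3 of these LiFKO calls remained in each of the 6 fits that left out a LiFKO library. The Scd genes are close paralogs, and how the counting split reads between them is not known.

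Srebf1 itself (ENSMUSG00000020538) was at 13.29, 13.62 and 13.76 in AMLN LiFKO, against 12.33, 12.24 and 12.63 in chow LiFKO. It rose by 1.15 (SE 0.18, adjusted p = 0.00732) in LiFKO and by 1.87 in Control, and the difference of the 2 effects was not called (-0.72, SE 0.26, adjusted p = 0.195). Fatty acid synthase, Fasn, was at 13.20, 13.35 and 13.13 in AMLN LiFKO, against 11.81, 12.17 and 12.78 in chow LiFKO. It rose by 0.97 (SE 0.24, adjusted p = 0.0423), and less than in Control, with a difference of -1.67 (adjusted p = 0.0346). On AMLN diet the 3 LiFKO values lay within the range of 12.68 to 13.58 seen in chow Control. Acetyl-CoA carboxylase 1, Acaca, rose by 0.78 (SE 0.19, adjusted p = 0.036), and Thrsp, which promotes lipogenesis, by 1.58 (SE 0.39, adjusted p = 0.039). The LiFKO calls of Fasn and Acaca were kept in 1 of 6 fits, that without chow LiFKO replicate 3 (other fits 0.75 to 1.02 for Fasn and 0.63 to 0.87 for Acaca), and that of Thrsp was lost without chow LiFKO replicate 1 or 2 or AMLN LiFKO replicate 2 or 3 (1.20 to 1.67). The Fasn difference was lost in 9 of 12 fits (-1.81 to -1.40) and kept without chow Control replicate 1, chow LiFKO replicate 1 or AMLN Control replicate 3.

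Ketohexokinase, Khk, the first enzyme of fructose use, rose in both genotypes. Its values were 14.05, 14.14 and 14.05 in AMLN LiFKO, against 13.27, 13.23 and 13.14 in chow LiFKO. They were 14.81, 14.93 and 15.11 in AMLN Control, against 14.06, 13.80 and 13.87 in chow Control. It rose by 0.87 in LiFKO (SE 0.15, adjusted p = 0.00989) and by 1.04 in Control, with a difference of -0.17 (SE 0.21, adjusted p = 0.754); its LiFKO call stayed in all 6 fits without a library.

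Other members of the list rose in Control but were not called in LiFKO. Acacb, acetyl-CoA carboxylase 2, whose product restrains fatty acid oxidation, was at 14.50, 14.23 and 14.86 in AMLN LiFKO, against 14.93, 14.86 and 14.78 in chow LiFKO. In Control it was at 13.14, 13.00 and 13.16 on AMLN diet, against 11.17, 10.38 and 11.00 on chow. Every LiFKO value exceeded every Control value, and the diet effects differed by -2.58 (SE 0.25, adjusted p = 0.000196; called in all 12 fits without a library). The elongase Elovl5 had a log2 fold change of 0.28 (adjusted p = 0.591) in LiFKO and 2.92 in Control, and the desaturase Fads2 of 0.01 (adjusted p = 0.984) in LiFKO and 1.43 in Control. Both differences (-2.64, adjusted p = 0.00763, and -1.42, adjusted p = 0.0125) were called in all 12 fits. The elongase Elovl6 (-1.64, adjusted p = 0.0474) and the acyltransferase Gpam (-0.97, adjusted p = 0.048) were called too, but Elovl6 in 3 of 12 fits and Gpam in 0 of 12. Elovl6, Fads2 and Gpam were chosen after their values were seen, since the test of the difference called 8 members of the list. Acly, which makes cytosolic acetyl-CoA, was at 0.01 (adjusted p = 0.989) in LiFKO, and Pnpla3, a lipase-like SREBP-1c target, at 1.84 (SE 0.70, adjusted p = 0.148).

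**Figure D2:**
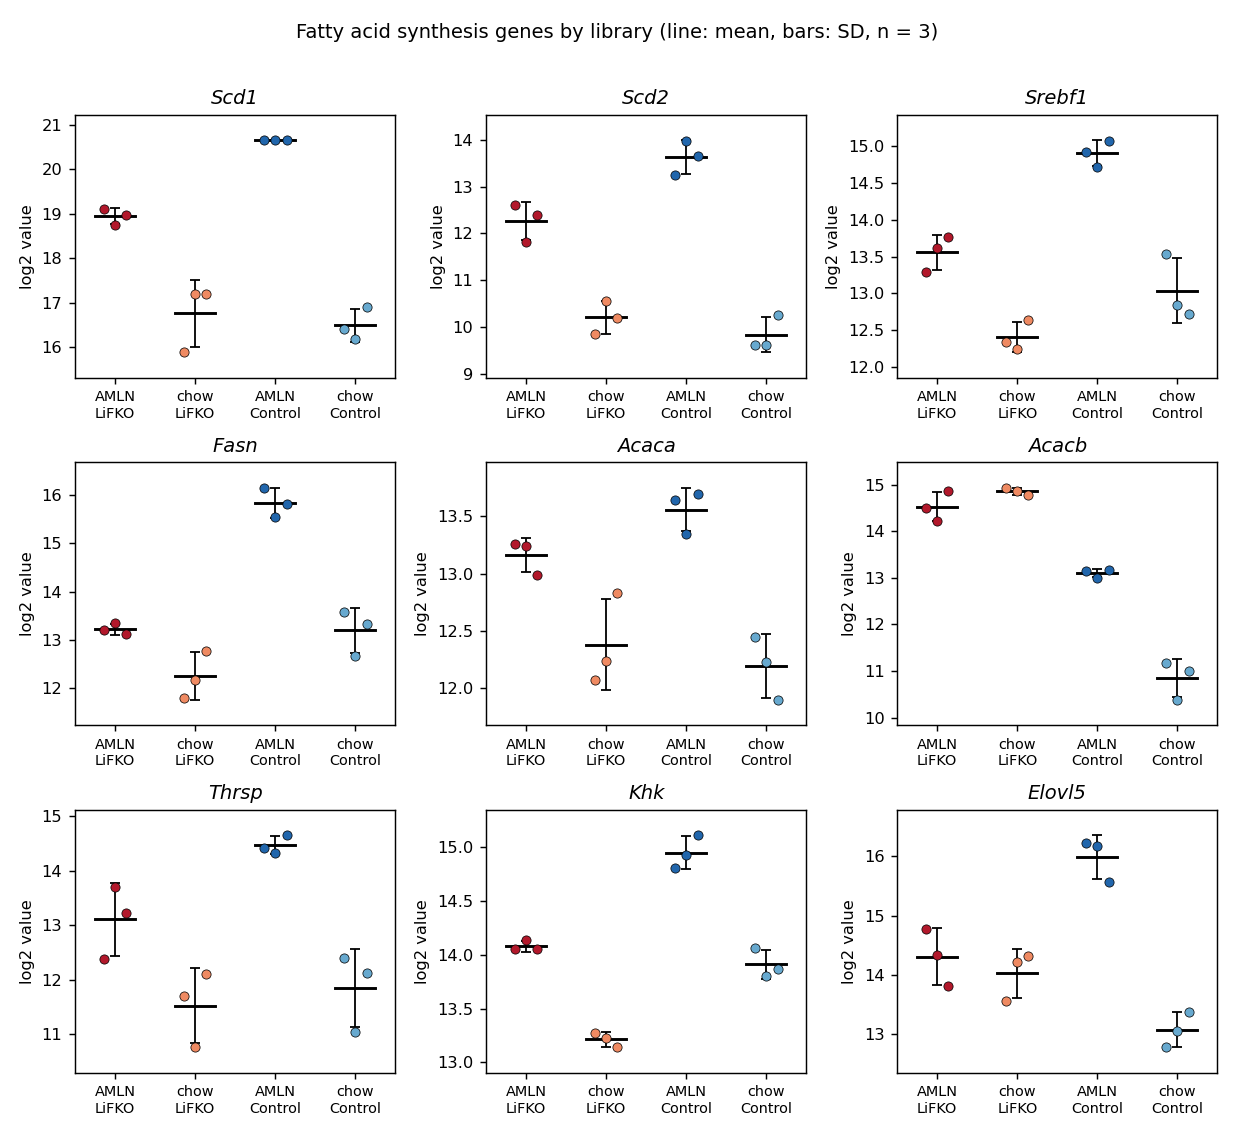
Log2 values of 9 fatty acid synthesis genes in each library of AMLN LiFKO, chow LiFKO, AMLN Control and chow Control livers, with lines at the mean and bars of 1 SD (n = 3 each); axes do not start at 0. Scd1, Scd2, Srebf1 and Khk separate AMLN LiFKO from chow LiFKO, whereas Acacb is between 14.23 and 14.93 in all 6 LiFKO libraries.

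Upstream sequence is shown for 2 of these genes, taken from a wider set of named genes that was searched. Deposited ChIP-seq peaks of LiFKO livers lie at their annotated starts in mm9. Such peaks also lie within 1000 bases of the starts of Srebf1, Acaca, Acacb and Thrsp, which are not shown. Khk was the only searched gene with CACGTG, while CCAAT was found in several. Shown are 250 bases before the RefSeq start (GRCm38.p6), 5′ to 3′ on the gene's strand. For Fasn (minus strand, chr11:120824548-120824797) capitals mark CCAAT in either direction, the element bound by NF-Y, a partner of SREBP. For Khk (plus strand, chr5:30921309-30921558) capitals mark CACGTG, an E-box of the kind that TFE3 and the carbohydrate-responsive factor ChREBP can bind.
Fasn: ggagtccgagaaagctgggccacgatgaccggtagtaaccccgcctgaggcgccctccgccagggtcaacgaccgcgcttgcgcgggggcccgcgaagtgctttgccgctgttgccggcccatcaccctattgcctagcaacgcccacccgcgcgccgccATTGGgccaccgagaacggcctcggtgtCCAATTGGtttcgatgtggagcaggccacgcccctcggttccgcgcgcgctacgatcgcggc
Khk: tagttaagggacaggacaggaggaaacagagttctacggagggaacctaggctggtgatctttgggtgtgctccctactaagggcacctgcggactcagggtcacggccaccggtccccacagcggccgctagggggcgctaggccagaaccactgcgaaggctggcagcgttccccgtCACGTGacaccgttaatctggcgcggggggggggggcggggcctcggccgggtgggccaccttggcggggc
In Fasn, CCAAT lay at -62 to -58 on the gene's strand and at -90 to -86 and -59 to -55 on the other, the last overlapping the first. In Khk, CACGTG, which reads the same on both strands, lay at -71 to -66. The chow TFE3 peak at Khk was centred 51 bases after the mm9 start, so CACGTG is not shown to be the bound site. The FPC LiFKO list had no TFE3 peak within 1000 bases of that start. Over all 32851 RefSeq promoter windows of this length, 33.8% held CCAAT and 6.02% held CACGTG in either direction, so these matches are descriptions. TCACNCCAC (N is any base), a form of the element that SREBP itself binds, was also searched. It was found in neither gene, and 1.05% of all windows held it.

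Sterol exporters rose in LiFKO. Of 11 measured genes of sterol export and LXR targets, 3 rose (Abcg5, Abcg8 and Pltp) and 0 fell in LiFKO, with a median of 0.27, and 5 rose and 0 fell in Control, with a median of 0.34. Abcg5 (ENSMUSG00000040505, mm9 chromosome 17, 85057574 to 85082351) was at 14.15, 14.33 and 14.44 in AMLN LiFKO, against 12.95, 13.02 and 12.75 in chow LiFKO. Abcg8 was at 14.05, 14.35 and 14.31 in AMLN LiFKO, against 13.12, 12.98 and 12.88 in chow LiFKO. Both pairs of groups were far apart, with rises of 1.40 (SE 0.13, adjusted p = 0.000447) for Abcg5 and 1.24 (SE 0.13, adjusted p = 0.00126) for Abcg8, called in all 6 fits without a library. In Control Abcg5 rose by 1.05 and Abcg8 by 0.47, and the differences of 0.35 (adjusted p = 0.387) and 0.78 (adjusted p = 0.0623) were not called. The annotated spans of the 2 genes overlap in the deposited table and strand use in counting is not stated, so reads of the shared stretch cannot be assigned. Pltp, a phospholipid transfer protein, rose by 1.11 (SE 0.26, adjusted p = 0.0324), a call kept in 1 of 6 fits, that without AMLN LiFKO replicate 1 (other fits 0.99 to 1.19).

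The 2 transporters are transcribed away from each other, and the 109 bases between their RefSeq starts (chr17:84683012-84683120, GRCm38.p6, plus strand, on which Abcg8 lies) are shown as the stretch they share.
Abcg5 and Abcg8: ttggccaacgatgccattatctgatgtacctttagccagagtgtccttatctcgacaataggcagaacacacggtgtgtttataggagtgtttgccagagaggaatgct
It held neither CCAAT nor CACGTG. Outside this stretch, further upstream of the Abcg8 start shown, CCAAT lay at -175 to -171 and at -114 to -110 on that gene's strand. These matches are descriptions too. A TFE3 peak of the chow LiFKO list covered the start of Abcg5 in mm9 (chr17:85082300-85082486), centred 42 bases upstream of it, with a score of 29.7, above 79.3% of the list.

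Cholesterol synthesis gave no call in LiFKO: 0 of 24 measured genes rose and 0 fell by limma (1 and 2 at an unadjusted p under 0.05), with a median of -0.26, and 2 rose and 4 fell in Control, with a median of -0.12. Srebf2, the regulator of the pathway, was at -0.05 (adjusted p = 0.862). Among 15 bile acid genes 3 rose in LiFKO and 0 fell, and 0 rose and 3 fell in Control. Baat, which conjugates bile acids, was at 13.52, 13.52 and 13.60 in AMLN LiFKO, against 13.19, 12.92 and 13.11 in chow LiFKO, and rose by 0.47 (SE 0.09, adjusted p = 0.0139; lost without chow LiFKO replicate 2, at 0.39). The bile acid receptor Nr1h4 rose by 0.45 (SE 0.10, adjusted p = 0.0214) and had -0.22 in Control (adjusted p = 0.105). Its effects differed by 0.67 (SE 0.13, adjusted p = 0.0304). Its LiFKO call was lost without chow LiFKO replicate 1 or 2 or AMLN LiFKO replicate 1 (0.39 to 0.41), and the difference in 8 of 12 fits (0.61 to 0.69). The hepatic uptake carrier Slco1b2 rose by 0.65 (SE 0.15, adjusted p = 0.0316), in 0 of 6 fits without a library (0.61 to 0.70). Cyp7a1, the rate-limiting enzyme of bile acid synthesis, was at 1.48 (SE 0.44, adjusted p = 0.0777).

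Gluconeogenic Pck1 fell in LiFKO on AMLN diet. Among 16 genes of glucose metabolism and insulin signalling 1 rose and 2 fell in LiFKO, and 4 rose and 6 fell in Control. Pck1, the gluconeogenic carboxykinase, was at 16.05, 17.04 and 15.72 in AMLN LiFKO, against 18.03, 18.03 and 17.69 in chow LiFKO. It fell by 1.65 (SE 0.28, adjusted p = 0.0089) in LiFKO and by 1.25 in Control, in all 6 LiFKO fits without a library. Glycogen synthase 2, Gys2, was at 14.35, 14.05 and 13.95 in AMLN LiFKO, against 14.64, 15.23 and 14.87 in chow LiFKO, and fell by 0.79 (SE 0.17, adjusted p = 0.0245; lost without chow LiFKO replicate 2 or AMLN LiFKO replicate 2 or 3, at -0.76 to -0.63). The autophagy kinase Ulk1, an mTORC1 substrate, fell by 0.61 (SE 0.10, adjusted p = 0.00742) in LiFKO and by 0.71 in Control, the only one of 21 autophagy genes called in LiFKO, where 1 rose and 6 fell at an unadjusted p under 0.05. Of 25 genes of fatty acid oxidation and ketogenesis 0 rose and 0 fell in LiFKO (3 and 3 at an unadjusted p under 0.05), and 5 rose and 0 fell in Control. Cpt1a, its gatekeeper, was at -0.19 (adjusted p = 0.52) and the hepatokine Fgf21 at -1.31 (SE 0.61, adjusted p = 0.234).

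Genes of triglyceride storage, which rose broadly in Control, mostly did not pass the test in LiFKO. Of 24 measured genes 1 rose and 2 fell in LiFKO (median 0.13), and 15 rose and 2 fell in Control (median 0.96); for 5 the diet effect was called lower in LiFKO. Cidea, a lipid droplet fusion protein of fatty liver, was at 6.20, 3.61 and 3.16 in AMLN LiFKO, against 3.21, 4.19 and 5.56 in chow LiFKO. In Control it was at 10.58, 11.05 and 9.33 on AMLN diet, against 2.55, 3.73 and 2.32 on chow. The values 2.55 and 2.32 were the lowest of any gene in chow Control replicates 1 and 3. The size of the Control effect of Cidea, and of the difference, is therefore uncertain. The LiFKO groups overlapped, with a fold change of 0.00 (SE 0.93), and the diet effects differed by -7.45 (SE 1.32, adjusted p = 0.0203; lost without AMLN Control replicate 1 or 2, at -7.32 and -7.09). Its relative Cidec differed by -4.32 (SE 0.95, adjusted p = 0.0474), but in 1 of 12 fits, that without AMLN Control replicate 3 (other fits -4.67 to -3.90). On chow Cidec was already at 11.32, 12.84 and 11.83 in LiFKO, against 8.42, 8.82 and 8.92 in Control. The same held for the fatty acid transporter Cd36, at 15.02, 14.63 and 14.65 in AMLN LiFKO, against 14.21, 14.50 and 14.48 in chow LiFKO and 11.24 to 11.86 in chow Control. Its effects differed by -2.12 (SE 0.38, adjusted p = 0.0203), a call lost in 4 of 12 fits (-2.09 to -1.89), those without replicate 2 of chow Control, AMLN Control or AMLN LiFKO and that without replicate 1 of AMLN Control. The member that rose in LiFKO was the VLDL receptor Vldlr, by 2.23 (SE 0.52, adjusted p = 0.0316), and those that fell were the lipase Pnpla2, by 0.59 (SE 0.13, adjusted p = 0.0264), and the phosphatase Lpin2, by 0.56 (SE 0.12, adjusted p = 0.0225). Vldlr remained without chow LiFKO replicate 2 or AMLN LiFKO replicate 3 (otherwise 1.67 to 2.29), Pnpla2 without chow LiFKO replicate 1 or 3 (otherwise -0.61 to -0.49) and Lpin2 without chow LiFKO replicate 3 or AMLN LiFKO replicate 2 (otherwise -0.56 to -0.47).

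Of 12 genes of lipoprotein secretion, all measured, 2 rose (Apoc2 and Apoc3) and 1 fell (Angptl4) in LiFKO (median 0.19), and 3 rose and 2 fell in Control (median 0.25). The diet effect was called lower in LiFKO for 2, Apoa4 and Apoc2. Apoa4, made in the fatty liver and bound to triglyceride-rich particles, was at 17.24, 17.13 and 16.71 in AMLN LiFKO, against 16.14, 17.24 and 16.62 in chow LiFKO. In Control it was at 17.15, 16.44 and 15.62 on AMLN diet, against 12.26, 10.60 and 10.14 on chow. LiFKO livers on chow thus overlapped with AMLN Control livers, and the effects differed by -5.05 (SE 0.73, adjusted p = 0.00984; called in all 12 fits). Apoc2, the activator of lipoprotein lipase, rose in LiFKO by 0.71 (SE 0.14, adjusted p = 0.0137; lost without chow LiFKO replicate 1, at 0.60) and less than in Control, with a difference of -1.38 (SE 0.19, adjusted p = 0.00763; called in all 12 fits). Apoc3, an inhibitor of that lipase, rose by 0.43 in LiFKO (SE 0.11, adjusted p = 0.0423) and by 0.51 in Control, with a difference of -0.08 (SE 0.15, adjusted p = 0.841), and Angptl4, another inhibitor of it, fell by 0.56 in LiFKO (SE 0.15, adjusted p = 0.0484) and by 0.76 in Control. Both LiFKO calls were made in 1 of 6 fits, that without chow LiFKO replicate 1 for Apoc3 (other fits 0.35 to 0.47) and that without AMLN LiFKO replicate 2 for Angptl4 (other fits -0.59 to -0.39). Osbpl3, a relative of the oxysterol-binding protein, and Tceal8, of the TCEA-like family, had -0.16 (adjusted p = 0.816) and 0.32 (adjusted p = 0.279) in LiFKO and 3.49 and 3.32 in Control, with differences of -3.65 (adjusted p = 0.00225) and -3.00 (adjusted p = 3.12e-05), called in all 12 fits. On chow Osbpl3 already averaged 12.04 in LiFKO, against 8.48 in chow Control and 11.96 in AMLN Control. Tceal8 averaged 10.96 in chow LiFKO, against 7.87 in chow Control and 11.20 in AMLN Control. Fabp2, an intestinal type of fatty acid-binding protein, rose by 1.29 (SE 0.31, adjusted p = 0.0351) in LiFKO, in 0 of 6 fits without a library (1.22 to 1.40).

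**Figure D3:**
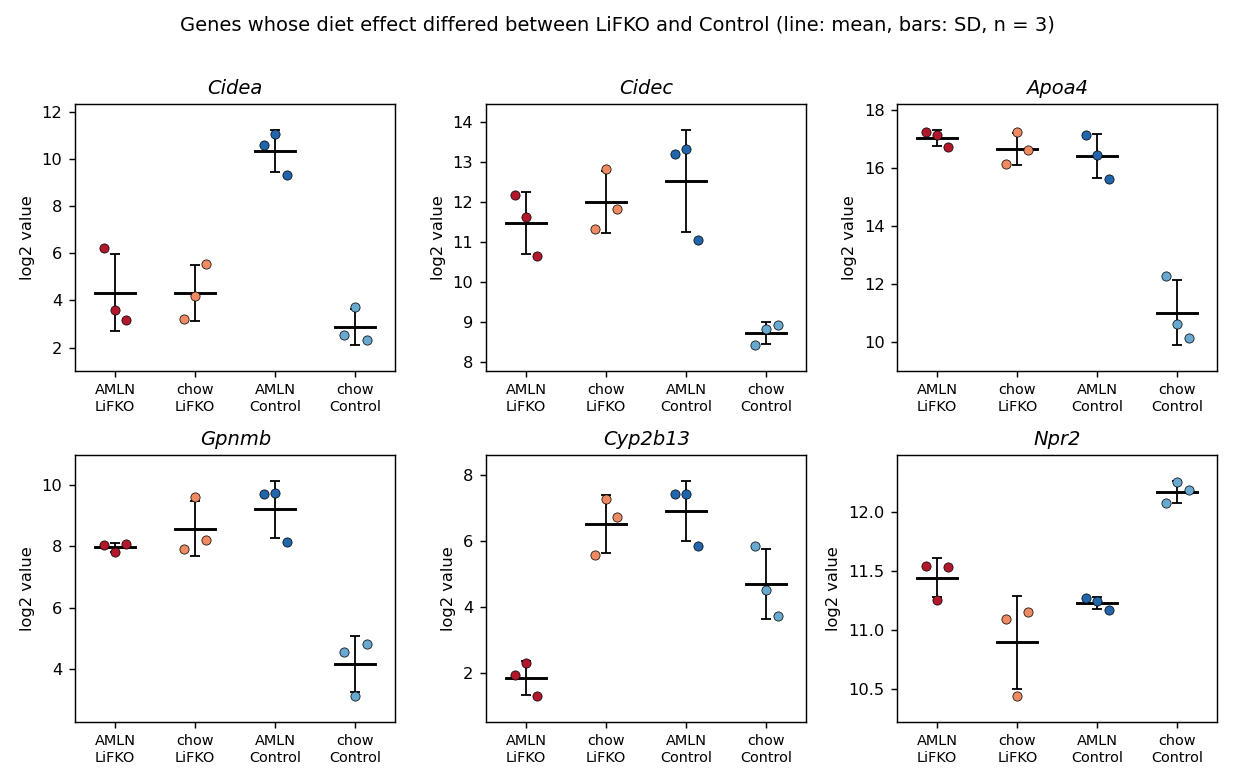
Log2 values of 6 genes whose diet effect was called different between genotypes, in each library of AMLN LiFKO, chow LiFKO, AMLN Control and chow Control livers, with lines at the mean and bars of 1 SD (n = 3 each); axes do not start at 0. For Apoa4, Cidec and Gpnmb the chow LiFKO libraries are above all chow Control libraries, and Cyp2b13 is lower in AMLN LiFKO than in chow LiFKO but higher on average in AMLN Control than in chow Control. Cyp2b13 in AMLN LiFKO and Cidea on chow in Control include values that are the lowest of their library.

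Lysosomal genes, the main TFE3 program, were not called. Of 39 measured, 0 rose and 0 fell in LiFKO by limma (3 and 2 at an unadjusted p under 0.05; median 0.022), and 10 rose and 4 fell in Control (median 0.091). The TFE3 target Rragd was at 12.89, 12.69 and 12.96 in AMLN LiFKO, against 12.89, 12.73 and 12.99 in chow LiFKO, and at 7.53 to 8.49 over the 6 Control libraries. It differed by -0.02 with diet in LiFKO (SE 0.23, adjusted p = 0.972), and the lysosomal channel Mcoln1 by -0.17 (SE 0.09, adjusted p = 0.288). Gpnmb, a TFE3 target that also marks lipid-laden macrophages, was at 8.03, 7.81 and 8.08 in AMLN LiFKO, against 7.92, 9.60 and 8.20 in chow LiFKO. In Control it was at 9.71, 9.75 and 8.14 on AMLN diet, against 4.55, 3.13 and 4.82 on chow, and the effects differed by -5.64 (SE 0.97, adjusted p = 0.0203; lost without chow Control replicate 2 or AMLN Control replicate 1 or 2, at -5.38 to -5.12). One gene of the folliculin and Rag circuit of 15 measured rose in LiFKO, the folliculin partner Fnip2, at 14.09, 13.38 and 14.13 in AMLN LiFKO, against 13.00, 12.95 and 13.45 in chow LiFKO. Replicate 2 on AMLN diet lay just under chow replicate 3, and the rise was 0.74 (SE 0.18, adjusted p = 0.0433), kept without chow LiFKO replicate 3 or AMLN LiFKO replicate 2 (otherwise 0.61 to 0.67).

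Several drug-metabolizing cytochromes fell in LiFKO. Of 16 genes of xenobiotic metabolism 0 rose and 6 fell (Cyp2a5, Cyp2c29, Cyp2c50, Cyp2c54, Cyp2c55 and Cyp3a11), with a median of -0.65; in Control 0 rose and 9 fell, with a median of -0.82. Between 3 and 6 were called lower as each LiFKO library was left out. Cyp3a11, a main cytochrome of drug and bile acid oxidation, was at 16.02, 16.65 and 16.94 in AMLN LiFKO, against 18.44, 18.75 and 18.88 in chow LiFKO, and fell by 2.15 (SE 0.28, adjusted p = 0.00251). Cyp2c29 was at 11.95, 12.55 and 13.49 in AMLN LiFKO, against 14.33, 14.74 and 15.87 in chow LiFKO, and fell by 2.32 (SE 0.38, adjusted p = 0.00752). The glutathione transferase Gsta2 was at 9.79, 9.37 and 10.85 in AMLN LiFKO, against 12.25, 12.32 and 13.07 in chow LiFKO, and fell by 2.54 (SE 0.43, adjusted p = 0.00866). These 3 falls were kept in all 6 fits without a library. In Control the fold changes were -0.71 for Cyp3a11, -0.94 for Cyp2c29 and -0.75 for Gsta2, none of them called, and the differences from LiFKO (-1.44, -1.38 and -1.79) were not called either (adjusted p = 0.0931, 0.23 and 0.166). Cyp3a41a averaged 8.97 ± 0.43 in AMLN LiFKO and 11.14 ± 0.12 in chow LiFKO (SD, n = 3 each) and Cyp2a5 fell by 1.30; both falls were called in all 6 fits. Cyp2c, Cyp3a and Gsta genes have near-identical relatives, so how reads were split among them is uncertain. Cyp2c50 and Cyp2c55 were chosen after their values were seen, and Cyp2c55 (-2.35, adjusted p = 0.0463) was called in 0 of 6 fits without a library (-2.75 to -1.64).

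The nuclear receptor Nr1i3, which induces such enzymes, was not called in LiFKO. Its values were 12.78, 12.86 and 12.83 in AMLN LiFKO, against 12.53, 12.29 and 12.46 in chow LiFKO, a difference of 0.40 that was not called (adjusted p = 0.196), and it fell by 0.71 in Control. The 2 effects differed by 1.10 (SE 0.24, adjusted p = 0.045), a call kept in 1 of 12 fits, that without chow Control replicate 3 (other fits 0.94 to 1.22). Cyp2b13, a female-biased cytochrome, moved in opposite directions by call. It was at 1.95, 2.32 and 1.32 in AMLN LiFKO, against 5.56, 7.27 and 6.71 in chow LiFKO, and the groups did not overlap. It fell by 4.65 (SE 0.67, adjusted p = 0.00411) in LiFKO and rose by 2.20 in Control (adjusted p = 0.0298), with a difference of -6.85 (SE 0.95, adjusted p = 0.00763; called in all 12 fits). In AMLN LiFKO replicate 3 Cyp2b13 had the lowest value of any gene, and the lowest values of replicates 1 and 2 were 1 and 1.11. The AMLN LiFKO level of Cyp2b13 was thus at or near the floor, and the sizes of its fall and difference are uncertain. Its close relative Cyp2b9 may share reads with it. Of 8 measured female-biased genes it was the only one called in LiFKO. Of 20 genes of the major urinary protein and male-biased list 0 rose and 1 fell in LiFKO (median -0.53), and 0 rose and 9 fell in Control (median -0.74). The member that fell, Serpina1e, one of several close serpin copies, had a fold change of -2.10 (SE 0.52, adjusted p = 0.041), in 1 of 6 fits, that without chow LiFKO replicate 2 (other fits -2.23 to -1.81).

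**Figure D4:**
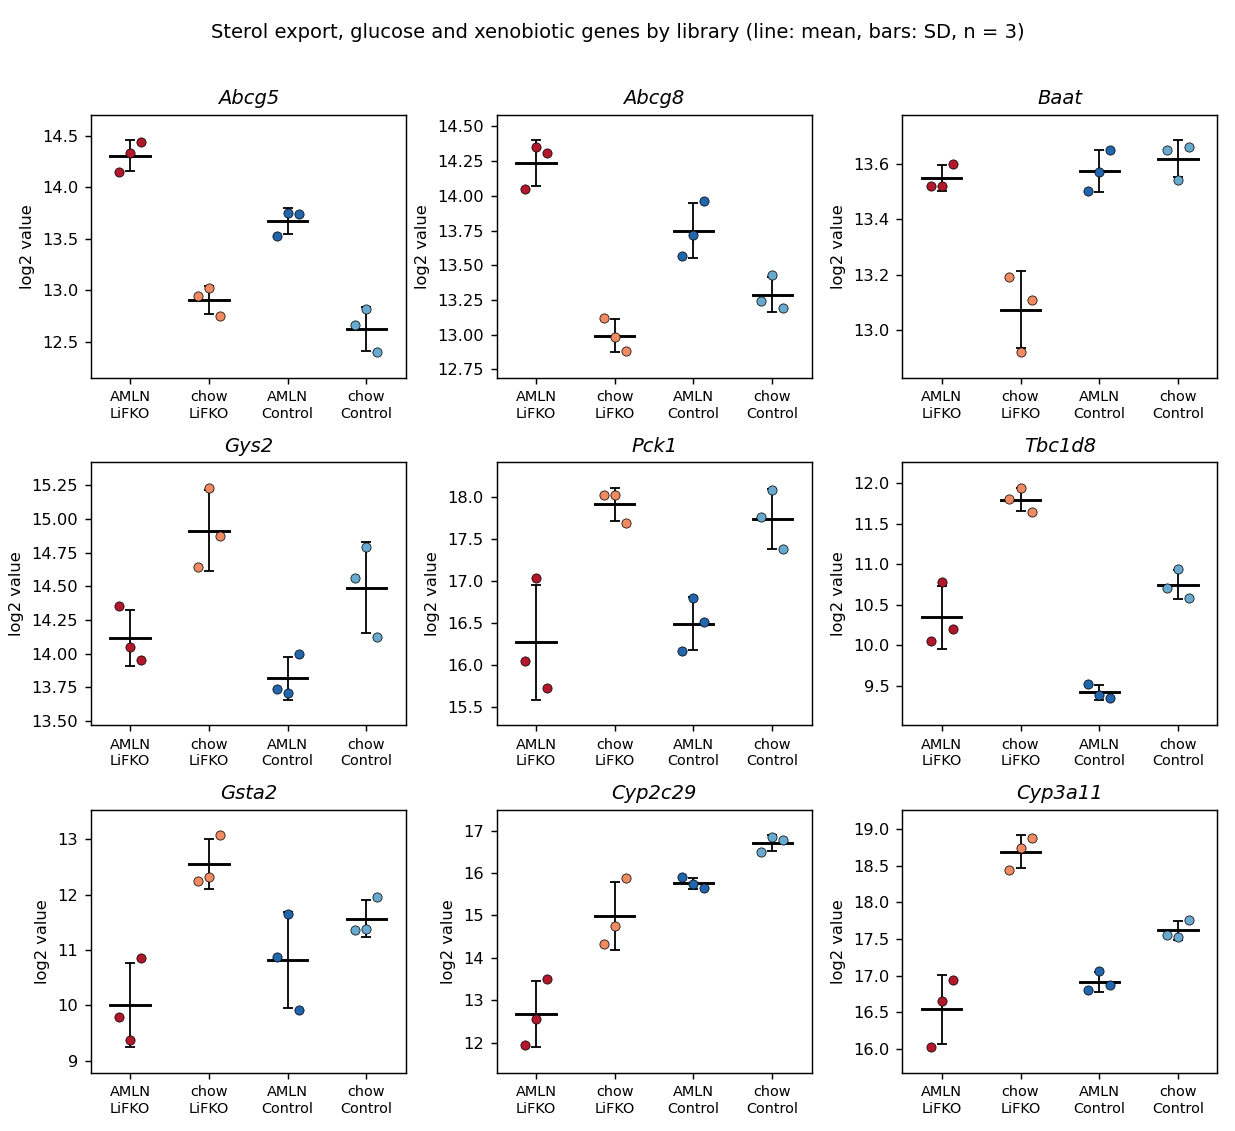
Log2 values of 9 genes, those of sterol export, bile acid, glucose and xenobiotic metabolism, and of Tbc1d8, in each library of AMLN LiFKO, chow LiFKO, AMLN Control and chow Control livers, with lines at the mean and bars of 1 SD (n = 3 each); axes do not start at 0. AMLN LiFKO and chow LiFKO libraries do not overlap in any of the 9 genes, with Abcg5, Abcg8 and Baat higher and the others lower on AMLN diet. The groups do not overlap in 24.9% of all genes, and for most of the 9 this was a condition of being named.

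Other large changes in LiFKO fell outside these lists. Rgn, a calcium-binding lactonase of hepatocytes, was at 15.96, 16.33 and 15.15 in AMLN LiFKO, against 14.23, 14.06 and 14.47 in chow LiFKO, and rose by 1.55 (SE 0.23, adjusted p = 0.00553). Neat1, the noncoding RNA of paraspeckles, rose by 1.59 (SE 0.31, adjusted p = 0.0152) in LiFKO and by 1.52 in Control. The peptidase Mme rose by 1.98 (SE 0.49, adjusted p = 0.04) and the arrestin-like Arrdc3 by 1.62 (SE 0.42, adjusted p = 0.049). Tbc1d8, a Rab GTPase-activating protein, was at 10.05, 10.78 and 10.20 in AMLN LiFKO, against 11.81, 11.94 and 11.65 in chow LiFKO, and fell by 1.46 (SE 0.17, adjusted p = 0.00127) in LiFKO and by 1.33 in Control. The growth factor Nrg4 fell by 1.35 (SE 0.23, adjusted p = 0.0089) and the extracellular Itih5 by 1.23 (SE 0.23, adjusted p = 0.0118). The calls of Rgn, Tbc1d8, Nrg4 and Itih5 were kept in all 6 fits without a library. That of Neat1 was lost without chow LiFKO replicate 2 or AMLN LiFKO replicate 2 (1.39 and 1.42), that of Mme in 4 of 6 fits (1.45 to 2.09; kept without chow LiFKO replicate 3 or AMLN LiFKO replicate 3) and that of Arrdc3 in 5 of 6 (1.32 to 1.79; kept without chow LiFKO replicate 3). Npr2, a natriuretic peptide receptor, had effects that differed the other way: 11.54, 11.25 and 11.53 in AMLN LiFKO, against 11.09, 10.44 and 11.15 in chow LiFKO, and 11.27, 11.24 and 11.17 in AMLN Control, against 12.07, 12.25 and 12.18 in chow Control. The diet effect was higher in LiFKO by 1.49 (SE 0.22, adjusted p = 0.0103; called in all 12 fits).

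Genes of injury that rose in Control were mostly not called in LiFKO. Of 24 fibrosis and stellate cell genes 0 rose and 0 fell in LiFKO by limma (2 and 0 at an unadjusted p under 0.05; median 0.30), and 13 rose in Control (median 0.79), with 0 called in the difference by limma (0 higher and 8 lower at an unadjusted p under 0.05). Collagen Col1a1 was at 8.86, 9.13 and 8.87 in AMLN LiFKO, against 8.54, 7.64 and 8.99 in chow LiFKO, with a fold change of 0.56 (adjusted p = 0.512) in LiFKO and 2.31 in Control; the difference was not called (-1.75, SE 0.62, adjusted p = 0.187). Of 14 cell cycle genes 0 rose and 0 fell in LiFKO (0 and 1 at an unadjusted p under 0.05; median 0.077), and 11 rose in Control (median 1.80). For the replication helicase Mcm6 the effects differed by -1.89 (SE 0.38, adjusted p = 0.0304), in 3 of 12 fits without a library (those without chow Control replicate 3, AMLN Control replicate 3 or AMLN LiFKO replicate 3; other fits -2.04 to -1.70). Among 14 acute phase genes 0 rose and 1 fell in LiFKO, and 8 rose and 1 fell in Control. The pentraxin Apcs fell in LiFKO by 0.94 (SE 0.21, adjusted p = 0.0238; kept without chow LiFKO replicate 2 or AMLN LiFKO replicate 3, otherwise -0.92 to -0.77) and rose in Control by 0.70, a difference of -1.64 (SE 0.29, adjusted p = 0.0203; lost without chow Control replicate 2 or AMLN Control replicate 1 or 2, at -1.71 to -1.59). Of 14 interferon response genes 0 rose and 0 fell in LiFKO (2 and 0 at an unadjusted p under 0.05; median 0.50), and 11 rose in Control (median 1.11). The unadjusted counts of these injury lists, also those for the difference, have no share over all genes beside them and are descriptions.

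Of 24 measured macrophage genes 1 rose and 0 fell in LiFKO (14 and 0 at an unadjusted p under 0.05), with a median of 0.72 in LiFKO and 0.65 in Control, where 11 rose. Their mean log2 value lay between 9.80 and 10.53 in AMLN LiFKO and between 9.53 and 9.75 in chow LiFKO, without overlap. The gene called was lysozyme, Lyz2, at 12.62, 13.49 and 12.96 in AMLN LiFKO, against 11.58, 11.94 and 11.74 in chow LiFKO, a rise of 1.27 (SE 0.32, adjusted p = 0.0445) that was called in 0 of 6 fits without a library (1.04 to 1.47). Trem2, a receptor of lipid-associated macrophages, was at 1.81 (SE 0.76, adjusted p = 0.189), and Cd68 at -0.18 (SE 0.27, adjusted p = 0.754), with 1.06 in Control. The interleukin Il1b was at 7.82, 7.74 and 7.91 in AMLN LiFKO, against 6.57, 6.30 and 5.56 in chow LiFKO, and rose by 1.68 (SE 0.39, adjusted p = 0.0293; kept without chow LiFKO replicate 1, otherwise 1.39 to 1.76). Among other cell type lists, 0 of 12 endothelial, 0 of 8 cholangiocyte, 0 of 7 erythroid, 0 of 3 neutrophil and 0 of 2 lymphocyte genes measured were called in LiFKO by limma (3, 1, 5, 1 and 2 at an unadjusted p under 0.05). The unadjusted counts have no share over all genes beside them and are descriptions. The mean level of the erythroid genes was 10.33 to 12.02 in AMLN LiFKO and 10.21 to 10.89 in chow LiFKO. That of the neutrophil genes was 5.82 to 8.05 in AMLN LiFKO and 5.95 to 6.20 in chow LiFKO, and that of the lymphocyte genes 7.60 to 8.73 in AMLN LiFKO and 6.86 to 7.33 in chow LiFKO. Of 2 measured acinar and adipocyte genes the adipocyte protease Cfd rose, by 2.64 (SE 0.59, adjusted p = 0.0265; kept without chow LiFKO replicate 2 or 3, otherwise 1.88 to 2.74). The part of these cells in the LiFKO calls was not tested.

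**Figure D5:**
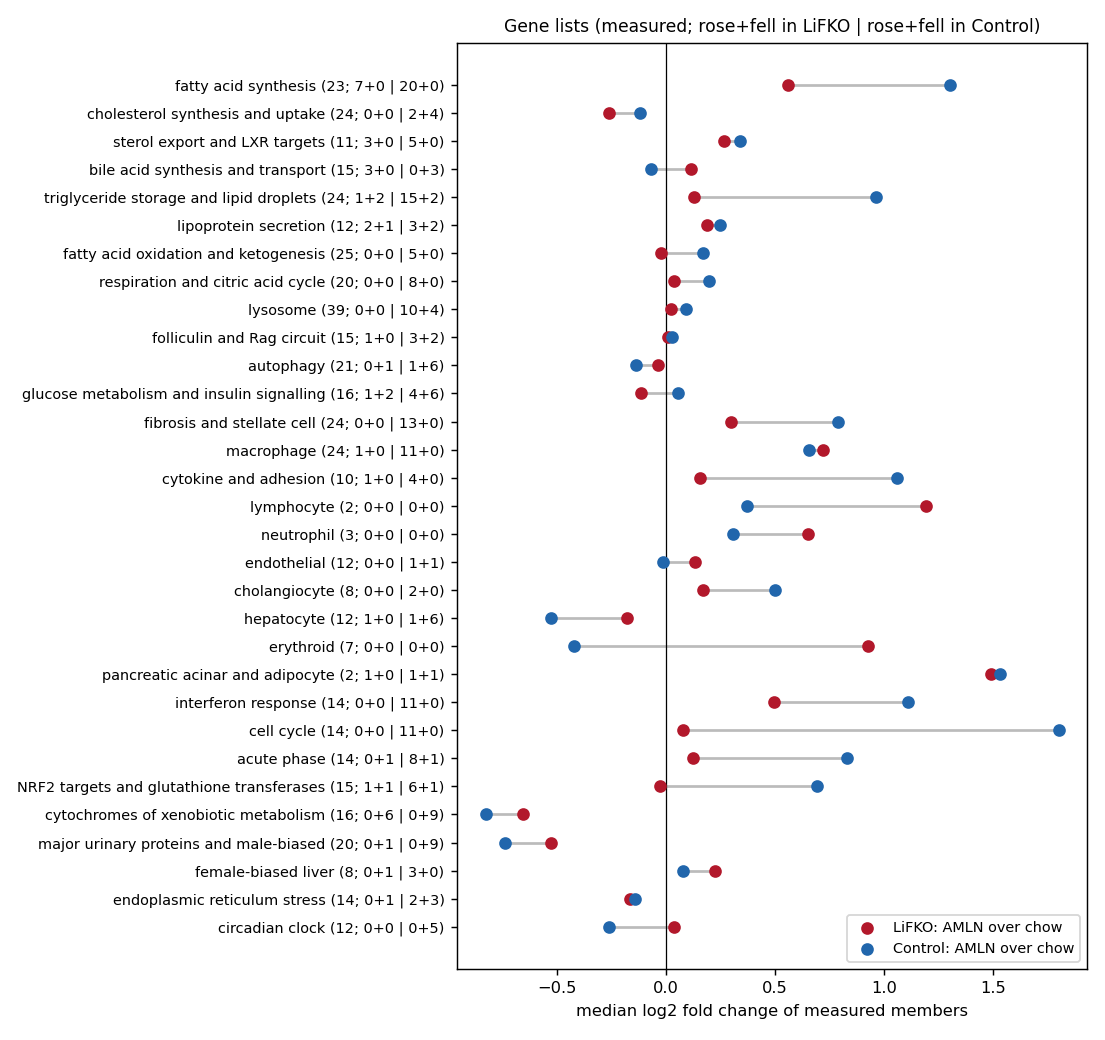
Median log2 fold change (AMLN over chow) of the measured members of 31 gene lists in LiFKO livers (red) and Control livers (blue), on the horizontal axis; brackets give the number measured, then the numbers that rose and fell in LiFKO and, after the bar, in Control. The largest gaps between genotypes, among lists with at least 10 genes measured, are those of cell cycle (0.077 in LiFKO, 1.80 in Control) and cytokine and adhesion genes (0.16 in LiFKO, 1.06 in Control).

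Deposited ChIP-seq peaks gave another readout of LiFKO livers, under other labels, on chow or a short FPC diet. The HA-nSREBP-1c list came from LiFKO livers given a virus for the tagged nuclear form of SREBP-1c and 9 days of FPC diet, of fructose, palmitate and cholesterol. It holds 1367 peaks, pooled over libraries, and its header names among them 1 labelled TFE3 rather than HA. Of genes that rose in LiFKO on AMLN diet, 4.13% (9 of 218) had such a peak within 1000 bases of either end, of genes that fell 0.669% (2 of 299), and of all tested genes 1.43% (198 of 13815). The 9 were Srebf1, Fasn, Scd1, Scd2, Rnf186, Anks4b, Nub1, Pcbd1 and Abhd16a. Of the 105 genes with a lower diet effect in LiFKO, 7 (6.67%) had one, among them Fasn, Scd1, Scd2, Acacb and Lpcat3. At Fasn the peak (mm9, chr11:120685399-120685575) was centred 5 bases from the start, with a score of 9.07, the authors' own value, above 75.3% of the list. TFE3 peaks of chow LiFKO livers (26445) lay within 1000 bases of an end of 52.8% of the genes that rose, 58.5% of those that fell and 48.8% of all. In the FPC LiFKO list (27751 peaks), whose header names an input library among the pooled ChIP libraries and a TFE3 ChIP library as background, the shares were 45.0%, 55.2% and 42.8%. With only TFE3 peaks above the median score, the shares were 33.0%, 40.8% and 36.3% for chow. For FPC they were 31.2%, 41.5% and 33.4%. The share among risen genes was then under that of all genes in both lists. At Khk a TFE3 peak of the chow list (mm9, chr5:31223887-31224073) was centred 51 bases after the start with a score of 34.4, and at Fnip2 one at -180 with 69.2, above 98.9% of that list. These shares are descriptions: fallen genes spanned a median of 40.3 kb of genome, risen genes 18.2 kb and all tested genes 19.6 kb, and the part of gene length in them was not tested.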

How the data were processed

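Liver RNA-seq of 15 libraries in 5 groups of 3 was used: AMLN and chow LiFKO, AMLN and chow Control, and AMLN DKO (LiFKO that also lack Tfe3), which entered only the estimate of the spread. The authors deposited log2 values for 13815 genes. Per the submitters' processing notes, reads were handled with bcl2fastq 2.17, Trimmomatic 0.32, STAR 2.6.0c (mm9), SAMtools, featureCounts and limma. The deposited log2 values had the same maximum (21.47) in every library and lower quartiles of 8.014 to 8.03, so they were quantile normalized. No counts were given, so depth and its precision are unknown, and strand use is not given in the sources used here. Peak lists of pooled libraries hold the authors' peak score, per the file headers, with HOMER 4.11 (chow) or HOMER 4.4 (FPC) named in the submitters' processing notes; scores were used within a list only.

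Here a linear model with 1 mean per group over 15 libraries was fitted with limma 3.58.1 in R 4.3.3 (eBayes with trend=TRUE, two-sided, Benjamini-Hochberg within each of 3 comparisons), checked on simulated data. SE is the moderated standard error. Percent values were computed from the deposited genes and peaks with Python 3.11.15. A gene had a peak when a peak lay within 1000 bases of either gene end, in place of the nearest-gene rule first written, since strand was known for 9670 genes. The members and the 31 lists (476 of 521 entries measured, 7 through a synonym) were chosen with earlier results of these data known, so no list was tested.

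The rule for naming genes took Flcn and Tfe3; in the LiFKO comparison up to 12 per direction, and in the difference up to 6, with the largest absolute fold change among called genes above the median level (non-overlapping groups for the LiFKO comparison; predicted names left out); in each list up to 4 members with the smallest p in the LiFKO comparison and 2 in the difference; and a set of regulators of lipid, lysosome and fibrosis. Exceptions are marked where they stand. Alternatives were a stricter threshold, no variance trend, robust eBayes, 12 libraries, only the groups compared, library weights, no low genes, housekeeping centring, a replicate block, and each library left out. Some genes that the rule admits are withheld and not reported here.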

Additional observations from a re-analysis of the deposited data

Results flagged for a closer look

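Each of the following genes was singled out because its diet effect differed between genotypes by the limma test of the difference itself (adjusted p under 0.05 over all genes). Values are the log2 diet effect in LiFKO minus that in Control. Among lipid synthesis genes the difference was -1.97 for Scd1, -1.73 for Scd2, -1.95 for Scd3, -1.67 for Fasn, -2.58 for Acacb, -2.64 for Elovl5, -1.64 for Elovl6, -1.42 for Fads2, -0.97 for Gpam and -0.78 for Lpcat3, a phospholipid acyltransferase. Among genes of lipid storage and transport it was -7.45 for Cidea, -4.32 for Cidec, -2.12 for Cd36, -2.54 for lipoprotein lipase, Lpl, -1.66 for the lipase inhibitor G0s2, -5.05 for Apoa4 and -1.38 for Apoc2. Lpl and G0s2, like Elovl6, Fads2, Gpam and Meg3, were chosen after their values were seen. The call was made in all 12 fits without a library for Acacb, Elovl5, Fads2, Apoa4 and Apoc2, in 1 of 12 for Cidec, Lpl and G0s2, and in 0 of 12 for Gpam.

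Outside lipid genes the effect was lower in LiFKO, with differences of -3.65 for Osbpl3, -3.35 for the tubulin Tubb2a, -3.00 for Tceal8, -6.85 for Cyp2b13 and -5.64 for Gpnmb. It was -1.28 for the tetraspanin Cd9, -4.02 for lipocalin 2, Lcn2, -1.64 for Apcs and -1.89 for Mcm6. For the antioxidant genes Srxn1 and Gsr, both NRF2 targets, it was -1.59 and -0.58. The effect was higher in LiFKO, with differences of 0.67 for Nr1h4, 1.10 for Nr1i3, 2.24 for the steroid dehydrogenase Hsd3b2, 1.95 for the organic anion carrier Slco1a4, 1.49 for Npr2, 1.43 for the transporter Abca8a, 1.22 for the Wnt deacylase Notum, 1.16 for the phosphodiesterase Gpcpd1, 1.72 for the elastase Cela1 and 3.59 for the noncoding RNA Meg3. Of all 38 genes, 9 were called in all 12 fits without a library: Acacb, Elovl5, Fads2, Apoa4, Apoc2, Osbpl3, Tceal8, Cyp2b13 and Npr2. A lower diet effect can go with a higher level on chow. Lcn2 averaged 10.22 in chow LiFKO and 7.43 in chow Control, and Lpcat3 13.48 and 12.37, while Tubb2a was nearer, at 10.39 and 9.96. The sizes of the Cidea and Cyp2b13 differences rest in part on values that are the lowest of their library.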

How the results depend on the processing

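No called gene changed sign in any alternative, but the number of calls moved; the cause was not tested beyond what each alternative changes. At an adjusted p under 0.01 the calls were 72 in LiFKO, 9 for the difference and 1308 in Control. Fitting only the groups compared gave 215 in LiFKO, where fewer libraries estimate the spread. Centring on housekeeping genes gave 99 in LiFKO, 56 for the difference and 1460 in Control. Library weights gave 533 for the difference and 4860 in Control, and a prior variance without trend 72 for the difference. Leaving out 1 library gave 175 to 497 in LiFKO, 27 to 334 for the difference and 1938 to 3257 in Control. The other alternatives stayed within 1.5 times of 517, 144 and 3154. Of 60 named genes called in LiFKO, 23 were called in all 6 fits without a library, 36 after housekeeping centring, 38 with only the groups compared and 60 with library weights.

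A replicate block gave 81 calls in LiFKO (78 of them among the 517), 60 for the difference and 2138 in Control, and kept 26 of the 60 named LiFKO calls. Libraries with the same number had residual correlations of -0.046, -0.037 and -0.185 in LiFKO. The labels do not say whether the numbers pair libraries, and these few values cannot decide it.

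With a peak distance of 10000 bases HA-nSREBP-1c peaks lay near 11.0% of genes that rose in LiFKO, 7.02% of those that fell and 5.23% of all. As no counts were given, the limit that depth sets is unknown, and 3 libraries a group limit the precision of every value.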

Other observations

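The genes here were chosen after their values were seen. The noncoding RNAs Meg3 and Rian, maternally expressed from one imprinted cluster, fell in LiFKO on AMLN diet. Meg3 was at 4.20, 5.73 and 5.56 in AMLN LiFKO, against 8.57, 7.47 and 8.39 in chow LiFKO, and at 5.44, 4.83 and 4.45 in AMLN Control, against 11.27, 11.64 and 11.52 in chow Control. It fell by 2.98 in LiFKO (limma, adjusted p = 0.00752; called in all 6 fits without a library) and by 6.57 in Control. Rian fell by 3.18 in LiFKO (adjusted p = 0.0171; lost without chow LiFKO replicate 1 or AMLN LiFKO replicate 1, at -2.98 and -2.69) and by 6.43 in Control. The 2 transcripts lie near each other and strand use in counting is not stated.

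Raet1c, which encodes a ligand of the natural killer cell receptor NKG2D, was at 6.50, 6.57 and 6.14 in AMLN LiFKO, against 8.48, 8.72 and 9.32 in chow LiFKO, and fell by 2.43 in LiFKO (limma, adjusted p = 0.00205) and by 1.87 in Control. Raet1d fell by 2.59 in LiFKO (adjusted p = 0.00251) and by 1.38 in Control; both LiFKO falls were called in all 6 fits without a library. The 2 genes are near-identical copies, so their reads may be shared. H60b, for another such ligand, fell by 2.61 (adjusted p = 0.0225), a call made in 2 of 6 fits and kept without chow LiFKO replicate 1 or AMLN LiFKO replicate 1 (otherwise -2.47 to -2.23).

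Asparagine synthetase, Asns, was at 1.95, 2.65 and 4.58 in AMLN LiFKO, against 7.87, 6.21 and 6.00 in chow LiFKO, and fell by 3.64 in LiFKO (limma, adjusted p = 0.0187) and had a fold change of -3.48 in Control (adjusted p = 0.00556). It was the 1 gene called in LiFKO of 14 in the endoplasmic reticulum stress list, whose median was -0.16 in LiFKO and -0.14 in Control. Its LiFKO call was lost without chow LiFKO replicate 1 or AMLN LiFKO replicate 1 or 2 (-3.43 to -3.05). In LiFKO the aspartate aminotransferase Got1 fell by 1.21 (adjusted p = 0.0118; lost without chow LiFKO replicate 2, at -1.07), and the carriers Slc38a2 by 1.09 (adjusted p = 0.018; lost in 3 of 6 fits, without chow LiFKO replicate 1 or 2 or AMLN LiFKO replicate 1, at -1.12 to -0.95) and Slc3a2 by 0.66 (adjusted p = 0.0091; called in all 6 fits). In Control, where all 3 were called, the fold changes were -1.64 for Got1, -1.42 for Slc38a2 and -0.45 for Slc3a2. The transcription factor gene Mycn rose by 2.85 in LiFKO (adjusted p = 0.0187), in 3 of 6 fits without a library (lost without chow LiFKO replicate 1 or AMLN LiFKO replicate 1 or 2, at 2.58 to 2.92).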
